A study of Mus musculus with 12 samples.

Results

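Eif1ad3 was studied here in mouse 2-cell embryos, in which transcription from the embryonic genome sets in, and RNA recovered with a His-tagged copy of the protein was sequenced (RIP-seq). The transcripts described here were counted at a higher level on the negative-control beads, which carried IgG, than on the beads that carried the anti-His antibody. They were selected on those measured values. A gene belongs to the group if it reached 20 CPM (a gene's reads scaled to a common library total) in both IgG libraries and if the smaller of its 2 IgG values was at least 4 times the larger of its 2 His values. The rule found 122 genes of the 19390 listed in the pulldown table (0.629%), or 6.37% of the 1914 genes at 20 CPM or more in both IgG libraries. Turned around, so that His stood 4 times over IgG, the same rule found 1392 genes, which are 7.18% of all genes listed and 28.4% of the 4903 genes at 20 CPM or more in both His libraries. The His and IgG values below are a description of what the rule selected and carry no test.

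The pulldown embryos, labelled Eif1ad3_OE, had been injected as zygotes with mRNA made in vitro that encodes His-tagged Eif1ad3, at 200 ng/uL. Lysate of 200 cells per replicate was incubated with anti-His beads (His, 2 libraries) or with IgG beads (IgG, 2 libraries), so both groups carried the injected mRNA. The total RNA group (2 libraries, labelled WT) was not precipitated. Its columns were matched by the word total alone, and their names also start with the letters In, so they may hold input RNA instead: either way they are 2-cell embryo RNA that did not pass over beads, and the genotype of these embryos is not certain. In a second experiment, on embryos from CF1 animals, 2 control libraries (Ctrl, labelled WT) were compared with 2 knockdown libraries (KD, labelled Eif1ad3_KD). The labels describe the knockdown in 2 ways, as a guide RNA with RfxCas13d mRNA placed into 1-cell embryos (RfxCas13d cuts RNA; controls got its mRNA alone) and as antisense morpholino oligos with Cas13d protein placed into oocytes. Replicates carry the letters A and B, and nothing in the labels says that they came from separate cultures or animals, so p-values measure the spread between these libraries only, which may be technical.

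The depth differed between the groups. IgG replicates A and B held 5925209 and 4678563 reads, the His libraries 7917501 to 8364126, the total libraries 15715664 to 16724030 and the knockdown table's libraries 18173916 to 27902514. At least 1 CPM was reached by 5148 and 5564 genes in the 2 IgG libraries, against 12246 and 12270 in His and 13677 and 13481 in total RNA, and 12574 and 12217 genes had no read in the IgG libraries. The members themselves were well covered there, with 123 to 9612 reads each in IgG A and 117 to 12653 in IgG B. The Smart-seq2 kit named in the labels amplifies cDNA by PCR and adds no molecular identifier, so 1 molecule can give many reads and the floor given below covers counting error only. The part of the thin IgG libraries in the members' values was not tested.

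Most members are protein-coding, and 17 of the 122 belong to a class of RNA that works in the nucleus. Small nucleolar RNAs (snoRNAs) guide the chemical modification of ribosomal RNA: those of the H/ACA kind, named Snora, direct pseudouridine, and those of the C/D kind, named Snord, direct methylation of the ribose. Guide RNAs of Cajal bodies, named Scarna, do the same for the spliceosome's small nuclear RNAs. In mammals most are cut out of the introns of a host gene, lack a poly(A) tail and sit in stable particles with a fixed set of proteins, whereas messenger RNAs make up the bulk of what an mRNA capture kit such as the one used here amplifies.

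By the RefSeq gene types, which matched 120 of the 122 members by symbol, 101 members were protein-coding, 11 were snoRNAs, 6 were guide RNAs and 2 were long non-coding RNAs (Malat1 and 6230400D17Rik); Gm24616 and Phaf1 were not matched. SnoRNAs and guide RNAs made up 97 of the genes listed, and the 17 members among them were 17.5% of the class. These 17 were also every gene of the class that reached 20 CPM in both IgG libraries (100%), while 101 of 1833 protein-coding genes at that level were members (5.51%). That level is itself part of the rule, so the 2 shares are not a like comparison. In both His libraries only 1 of the 97 small RNA genes was at 20 CPM or more, against 4740 of 16394 protein-coding genes. The plot of the values that chose the members shows all genes at that level.

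**Figure D1:**
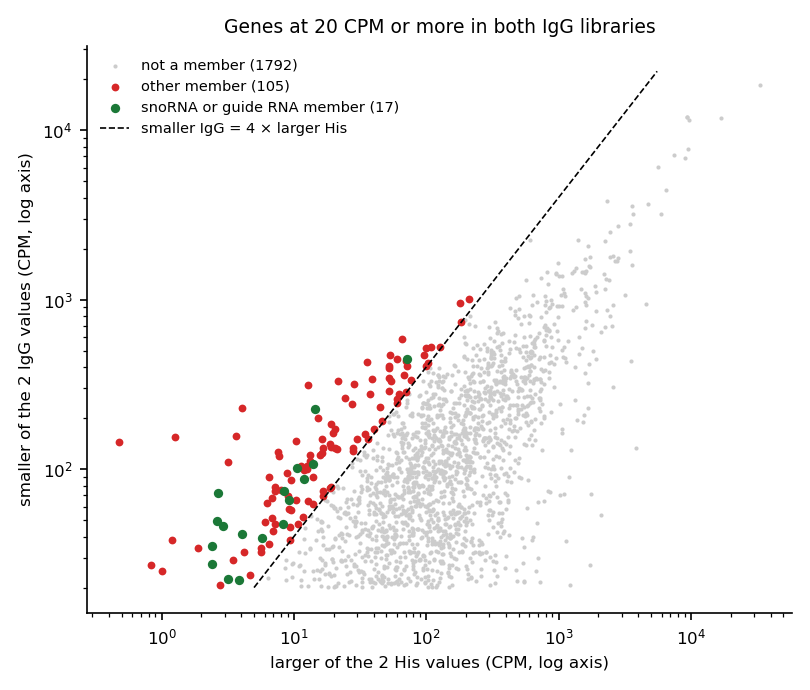
Each point is 1 of the 1914 genes at 20 CPM or more in both IgG libraries, with the larger His value on the horizontal and the smaller IgG value on the vertical log axis, both in CPM. The dashed line is the 4-fold limit of the rule; all 17 snoRNA and guide RNA genes (green) lie above it, with 105 other members (red), and genes that are not members are grey.

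Snora47, an H/ACA snoRNA, had 447 CPM in IgG replicate A, 2704 CPM in IgG replicate B and lower values elsewhere, with 57.6 and 72.1 CPM in His A and B and 8.34 and 8.07 CPM in total RNA. The libraries stood in the order total, His, IgG with no overlap between the groups. Snora21 was at 87.8 and 679 CPM in IgG, 9.45 and 11.9 CPM in His and 1.59 and 1.2 CPM in total RNA. Snora23 was at 66.2 and 673 CPM in IgG, 9.21 and 6.69 CPM in His and 0.954 and 0.777 CPM in total RNA. Both showed the same order of the 3 groups. Snord118, the U8 RNA that acts in maturation of the large ribosomal subunit's RNA, was at 49.4 and 239 CPM in IgG, 2.63 and 1.14 CPM in His and 0.318 and 0.239 CPM in total RNA, the last being 5 and 4 reads. Snord17, a C/D snoRNA, was at 46.2 and 223 CPM in IgG, and its His values of 0.956 and 2.90 CPM overlapped its total values of 1.02 and 0.718 CPM. Scarna6, a Cajal body guide RNA, was at 41.5 and 99.0 CPM in IgG, 4.06 and 3.92 CPM in His and 1.02 and 0.359 CPM in total RNA. The RNA Gm24119, listed by RefSeq as a snoRNA, had 101 and 737 CPM in IgG against 10.6 and 8.34 CPM in His and 1.02 and 0.120 CPM in total RNA.

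Summed over the 17 small RNAs, the level was 22.5 and 18.1 CPM in total RNA, 156 and 160 CPM in His and 1515 CPM in IgG A and 7860 CPM in IgG B. The small RNAs therefore took up 0.786% of the reads of IgG replicate B and 0.00181% of those of total replicate B. The IgG mean stood 17.6 to 76.4 times over the His mean across the 17, with a median of 31.1; across the 101 protein-coding members the range was 4.31 to 957 with a median of 12. That difference rests on IgG replicate B: with IgG A alone over the His mean the median was 9.72 for the small RNAs and 11.9 for protein-coding members, and with IgG B alone 43.7 and 10.1. The ratio of the rule itself, smaller IgG to larger His, had medians of 8.89 and 7.33. The 2 IgG libraries differed in how much small RNA they held: replicate B was above replicate A for 17 of the 17, by a median of 4.83 times (1.28 to 10.2). For the protein-coding members B was above A for 43 of 101, and the median of B over A was 0.91.

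**Figure D2:**
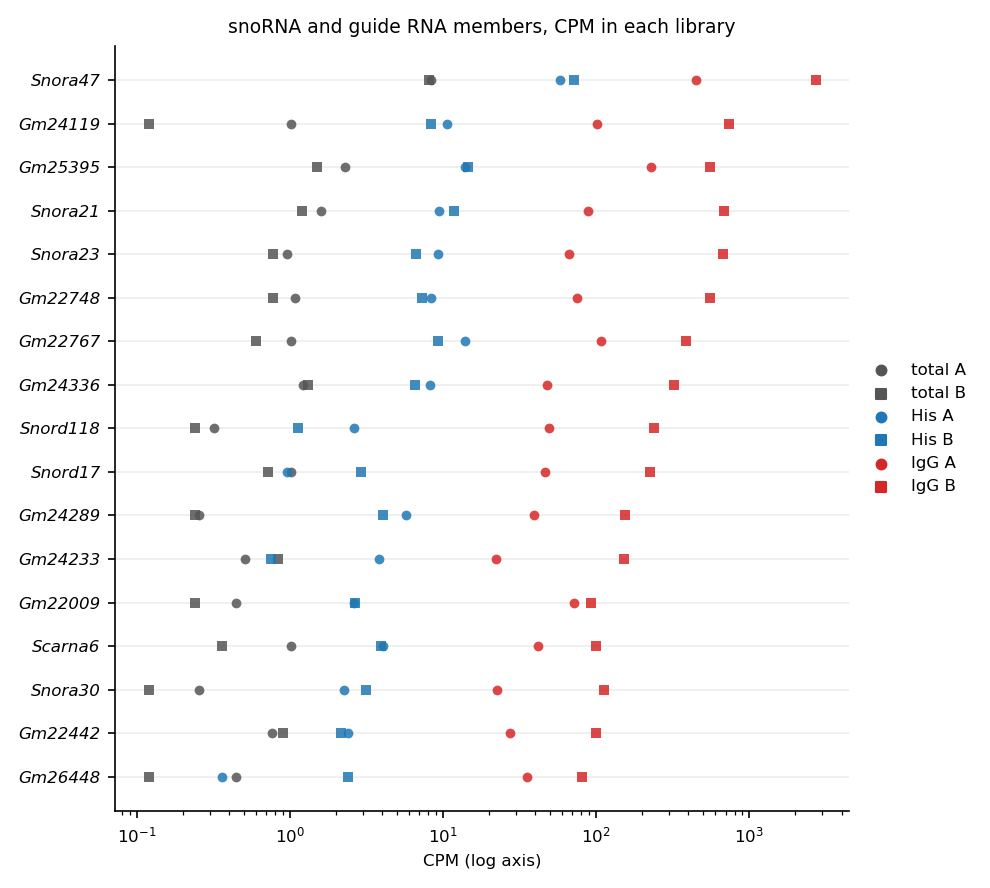
CPM of the 17 snoRNA and guide RNA members (rows) in each of 6 libraries on a log axis; grey is total RNA, blue His, red IgG, circles replicate A and squares replicate B. The IgG points lie to the right of the His points in every row, the replicate B square lies right of the A circle in all 17, and Snora47 reaches 2704 CPM.

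The rest of the class, which the rule left out for low IgG values, was lower in CPM, and its sums stood in the same order. The 80 snoRNA and guide RNA genes that are not members summed to 17.6 and 11.6 CPM in total RNA, 45.4 and 55.3 CPM in His and 183 and 1416 CPM in IgG. Many of the 80 were near the floor, and 36 had no read in IgG A and 26 none in IgG B. Their median was 0.338 and 3.42 CPM in IgG A and B, against 0.239 and 0.253 CPM in His. The pair Snord13 and LOC115490494 and the pair LOC115487654 and LOC115489221 each hold 1 value in every library and count as separate genes here. Of the genes of the class that are not members, 9 were at 1 CPM or more in both His libraries, a filter that does not use IgG. Both IgG values were above both His values for 6 of them, with the Snord13 pair counted as 2 genes, and below for 2 (Gm25835 and Gm22723). Over all 10611 genes that are not members and met that filter, both IgG values were above for 7.55% and below for 57.2%. For 14 of the 17 small RNA members both His values were also above both total values, against 57.6% of the 1914 genes at 20 CPM or more in both IgG libraries.

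A snoRNA gene usually lies inside a host gene, and reads over it may come from the small RNA or from unspliced host transcript. In RefSeq's gene models 16 of the 17 small RNA members lay within the span of another gene, called the host here. There were 15 different hosts in all, since Atg16l1 spans both Scarna6 and Gm25395, and Snord118 had none. Position alone set the host, so a host may lie on the other strand. Whether counting used the strand is not given in the sources used here, so reads of a small RNA and of an overlapping host cannot be told apart. None of the hosts was a member (0 of 15). Their IgG mean was between 0 and 4.51 times their His mean, with a median of 0.79, and only Rpl23 and Kpna4 had both IgG values above both His values. Zbed3, the host of Snora47, was at 18531 and 22801 CPM in IgG, 33149 and 33269 CPM in His and 19034 and 24460 CPM in total RNA. Zbed3 therefore had lower IgG than His values while the small RNA inside it had higher ones. Srcap, a chromatin remodeller that hosts Snora30, had no read in either IgG library, where Snora30 had 22.4 and 112 CPM. Tipin, a replication fork protein that hosts Gm24289, was at 286 and 223 CPM in total RNA, 28.5 and 35.5 CPM in His and 0.844 and 0.855 CPM in IgG, against 39.2 and 155 CPM in IgG for the small RNA.

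Other nuclear RNAs and the messages for the proteins of the snoRNA particles were looked at after these values had been seen. Malat1, a long RNA of nuclear speckles and a member, was at 48.8 and 111 CPM in IgG, 5.74 and 6.06 CPM in His and 6.74 and 4.42 CPM in total RNA, so that His and total overlapped. Rn7sk, which holds an elongation factor inactive, was at 24.5 and 46.6 CPM in IgG and 13.9 and 18.4 CPM in His, higher in IgG but short of the rule. Neat1, the RNA of paraspeckles, was at 16.4 and 14.3 CPM in IgG and 1.67 and 9.60 CPM in His. The other 3 long RNAs looked at did not share that order: Meg3 and Kcnq1ot1, both from imprinted regions, had no read in IgG and were at 3.35 and 18.8 CPM and at 6.34 and 3.41 CPM in His, and Xist was at 0 and 1.28 CPM in IgG and 0.120 and 0 CPM in His. Of the messages for 8 core proteins of the snoRNA particles, none was a member. Fbl, the methylase of C/D particles, came nearest, at 384 and 317 CPM in IgG, 86.0 and 104 CPM in His and 42.1 and 56.1 CPM in total RNA. The message for Dkc1, the pseudouridine synthase of H/ACA particles, overlapped, at 78.1 and 151 CPM in IgG and 81.1 and 63.4 CPM in His. Znhit6, an assembly factor of C/D particles, was a member and is described with the mRNAs.

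The 101 protein-coding members had a median of 198 CPM in IgG A and 156 CPM in IgG B, 13.4 and 13.1 CPM in His and 12.5 and 12.5 CPM in total RNA. Among the 12 members with the highest smaller IgG value, all but Snora47 were mRNAs or unmatched. Cnot3, a subunit of the CCR4-NOT deadenylase that shortens poly(A) tails, was at 1005 and 1382 CPM in IgG, 189 and 210 CPM in His and 139 and 192 CPM in total RNA. Wdr82, which joins a histone H3 methyltransferase and a transcription termination complex, was at 1622 and 740 CPM in IgG, 183 and 150 CPM in His and 154 and 175 CPM in total RNA. For these 2 genes the His values overlapped the total values, and only the IgG values stood apart.

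Other members were higher in His than in total RNA and higher again in IgG. Lmbr1l, a membrane protein of the lipocalin receptor family, was at 1007 and 950 CPM in IgG, 180 and 145 CPM in His and 39.6 and 53.8 CPM in total RNA. Sgsm1, a GTPase-activating protein for Rab proteins, was at 872 and 588 CPM in IgG, 50.6 and 65.6 CPM in His and 13.8 and 20.5 CPM in total RNA. Polg, the polymerase that copies mitochondrial DNA, was at 609 and 473 CPM in IgG, 26.5 and 53.3 CPM in His and 6.30 and 9.87 CPM in total RNA. In these 3 genes no 2 of the groups overlapped. Trub2, a pseudouridine synthase of mitochondria, was at 480 and 445 CPM in IgG, 59.7 and 45.8 CPM in His and 15.5 and 16.7 CPM in total RNA. Nelfcd, a subunit of the complex that pauses RNA polymerase II, was at 550 and 522 CPM in IgG, 117 and 126 CPM in His and 35.1 and 48.6 CPM in total RNA. The IgG replicates of Lmbr1l, Trub2 and Nelfcd lay close together, and those of Sgsm1 and Polg were further apart.

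The other members of the 12 were Phaf1, Rbm14, Entpd6 and Suv39h1. Phaf1, an autophagy protein, was at 1064 and 526 CPM in IgG, 71.0 and 109 CPM in His and 35.1 and 45.9 CPM in total RNA. Rbm14, an RNA-binding protein of paraspeckles, was at 757 and 517 CPM in IgG, 99.8 and 72.5 CPM in His and 41.1 and 54.1 CPM in total RNA. Entpd6, a nucleotidase of the secretory pathway, was at 474 and 487 CPM in IgG, 95.4 and 49.5 CPM in His and 39.0 and 42.7 CPM in total RNA. These 3 also kept the order total, His, IgG. Suv39h1, a methyltransferase for lysine 9 of histone H3, was at 436 and 501 CPM in IgG, 25.9 and 70.7 CPM in His and 21.9 and 27.7 CPM in total RNA, with His and total overlapping.

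**Figure D3:**
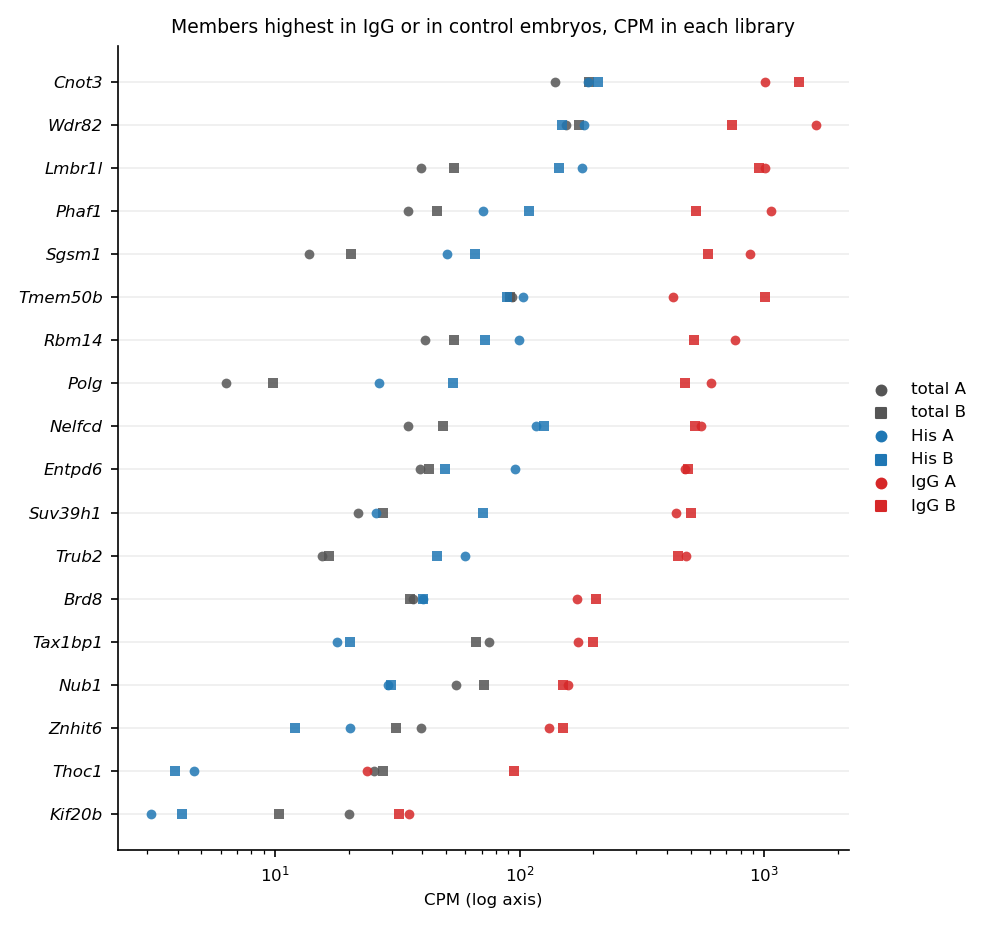
CPM of 18 members other than small RNAs that rank high by smaller IgG value or by mean in control embryos (rows) in each of 6 libraries on a log axis, with colours and symbols as for total (grey), His (blue) and IgG (red) replicates A (circle) and B (square). IgG lies right of His in every row; for Tax1bp1, Nub1, Znhit6, Thoc1 and Kif20b the His points lie left of the total points.

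The members with the most extreme ratios were nearly missing from His and from total RNA. Cdsn, the adhesion protein corneodesmosin of cornified skin, was at 144 and 313 CPM in IgG, 0.478 and 0 CPM in His and 1.27 and 3.89 CPM in total RNA. Large2, a glycosyltransferase that extends sugar chains on dystroglycan, was at 228 and 335 CPM in IgG, 0.120 and 4.04 CPM in His and 0.573 and 0.598 CPM in total RNA. Both were at 4.04 CPM or less in His, and both IgG libraries held them. Nid2, a basement membrane protein, was at 156 and 244 CPM in IgG, 0 and 3.66 CPM in His and 3.31 and 3.23 CPM in total RNA. Pex10, a peroxisome assembly factor, was at 292 and 110 CPM in IgG, 0.956 and 3.16 CPM in His and 1.72 and 1.26 CPM in total RNA. Of the 122 members 5 had no read in 1 of the His libraries and none lacked reads in both. A library holding 0 reads still allows up to 0.359 CPM in His A and 0.379 CPM in His B (3 reads, counting error only).

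Cdsn is on the list of keratinocyte markers and was the only one of 19 listed markers at 20 CPM or more in both IgG libraries; it alone made up the list's summed level of 144 and 313 CPM there, so every other listed marker of keratinocytes was at 0 on the IgG beads. Prm2, a protamine that packs sperm DNA, was the only sperm marker among the members (1 of 19), at 47.4 and 54.3 CPM in IgG, 1.08 and 7.20 CPM in His and 4.71 and 4.42 CPM in total RNA. The sperm list as a whole was highest in total RNA, with sums of 566 and 582 CPM in total RNA, 98.4 and 179 CPM in His and 105 and 234 CPM in IgG, and 2 of its genes were at 20 CPM or more in both IgG libraries. The lists for cumulus, granulosa and oviduct cells (0 of 21) and for blood cells (0 of 18) held no member and no gene at 20 CPM in both IgG libraries. Their sums in IgG A and B were 140 and 31.4 CPM for the first and 213 and 0 CPM for the second, and the part of such cells in the members' values was not tested.

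Oocyte and 2-cell markers were found in the pulldown libraries, but these were not members. Of 45 oocyte markers 24 were at 20 CPM or more in both IgG libraries and 0 were members, with sums of 50028 and 47798 CPM in IgG, 69284 and 70792 CPM in His and 67350 and 60286 CPM in total RNA. Of 32 2-cell markers only 5 were at 20 CPM or more in both IgG libraries, and 0 were members. Their sums were 1338 and 2127 CPM in IgG, 4672 and 4864 CPM in His and 10474 and 7667 CPM in total RNA. The 92 cytosolic ribosomal protein genes, 52 of them at 20 CPM in both IgG libraries, and the 9 Eif1ad genes also held no member. Eif1ad3, the tagged gene, was at 1.35 and 30.8 CPM in IgG, 80.3 and 83.6 CPM in His and 185 and 111 CPM in total RNA. Its total values were the highest. The pulldown embryos carried the injected mRNA, and whether the embryos of the total columns did is not certain.

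Outside the small RNAs few members shared a family. In all 41 members were on 1 or more of the lists of marker genes and gene families and 81 on none, and 22 of the 41 were on the lists of small non-coding RNAs, model symbols and clone symbols. The ubiquitin ligase and deubiquitinase list had 4 members of 379 genes listed: Ube2o, Klhl25, Usp20 and Klhl29. The cytoskeletal motor and cilium list, chosen by symbol, had 3 of 410 (Wdr82, Kif20b and Wdr66), although Wdr82 acts in the nucleus. The extracellular matrix list had Nid2 and Col7a1 of 80 genes, and the zinc finger list had Zfp335 and Zfp809 of 447. The share of listed genes that were members was 7.87% for the small non-coding RNA list (7 of 89) and 2.5% for the extracellular matrix list. It was 1.06% for the ubiquitin list and 0.447% for zinc fingers, beside 0.629% of all genes. At 20 CPM or more in both IgG libraries were 10 genes of the small RNA list, 62 of the ubiquitin list and 24 zinc fingers. The 2 extracellular matrix members were the only genes of their list at that level.

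Just inside the ratio of 4 stood Capn10, a calpain protease (4.02), Ube2o, a ubiquitin-conjugating enzyme (4.03), and Wdr82 (4.03). Just outside stood Prkcd (3.96), Tent4b (3.96) and Pax2 (3.94). Among genes past the ratio, Pnisr at 20.8 CPM, Gm24233 at 22.3 CPM and Snora30 at 22.4 CPM were nearest above the 20 CPM limit in the smaller IgG value, and Mettl7a1, Gm25989 and Snx10 nearest below, at 18.1, 17.4 and 16.9 CPM. Gm25989 is itself a small RNA of the class above. The group depends on both IgG libraries: with IgG replicate A left out the rule found 1010 genes, 41 of them small RNAs, and with IgG replicate B left out 767 genes, 17 of them small RNAs.

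Total RNA, which the rule did not use, gave a level against which each side of the ratio could be set. Most members were high on the IgG beads: for 105 of 122 the smaller IgG value was at least 4 times the larger total value, against 294 of the 1914 genes at 20 CPM in both IgG libraries (15.4%), and for 120 both IgG values were above both total values, against 52.7% of the 1914. Since the rule chose high IgG values, these counts are a description. In total RNA the members had a median of 8.92 CPM, against 99.5 CPM for the 1914 genes and 5.09 CPM for all genes listed. Of the members 14 were under 1 CPM in both total libraries (11.5%, against 0.731% of the 1914 genes and 25.9% of all genes) and 32 at 20 CPM or more in both (26.2%, against 85.9% and 29.1%). The 17 small RNA members had a median of 0.808 CPM there, and the protein-coding members one of 12.5 CPM. The IgG mean was a median of 240 times the total mean for the small RNAs and 16.9 times for protein-coding members; with IgG A alone these were 80.1 and 18.3, and with IgG B alone 330 and 13.9.

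Against total RNA the His values went both ways. Both His values were above both total values for 65 of 122 members (53.3%), against 57.6% of the 1914 genes and 22.6% of all genes. They were below for 24 (19.7%), against 24.8% and 37.9%. The His mean was a median of 7.65 times the total mean for small RNA members and 1.58 times for protein-coding members. Col7a1, an anchoring fibril collagen, was at 7.17 and 9.35 CPM in His and 0.191 and 0.598 CPM in total RNA, next to 45.4 and 145 CPM in IgG. Cad, the enzyme that starts pyrimidine synthesis, was at 51.9 and 37.8 CPM in His, 5.85 and 8.49 CPM in total RNA and 352 and 289 CPM in IgG. Fasn, fatty acid synthase, was at 52.7 and 29.0 CPM in His, 8.14 and 8.85 CPM in total RNA and 1204 and 407 CPM in IgG. These and the genes of the next paragraph were named after their values had been seen.

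A few members were low in His. Both total values were at 20 CPM or more for 32 members. For 3 of these, Psmd1, Thoc1 and Ofd1 (9.38%), total stood at least 4 times over His. Over the whole table it did so for 488 of 5636 genes at that total level (8.66%). Among genes also at 20 CPM or more in both IgG libraries it did so for 54 of 1645 (3.28%). Since the rule chose low His values beside IgG, these counts are a description. Psmd1, a proteasome subunit, was at 84.6 and 78.4 CPM in IgG, which overlapped its 79.0 and 86.5 CPM in total RNA, and at 9.45 and 18.9 CPM in His. Thoc1, of the complex that couples transcription to mRNA export, was at 23.8 and 94.5 CPM in IgG, 4.66 and 3.92 CPM in His and 25.5 and 27.6 CPM in total RNA. Ofd1, a centriole protein, was at 43.0 and 89.6 CPM in IgG, 6.93 and 3.79 CPM in His and 28.9 and 30.1 CPM in total RNA. The IgG values of Psmd1 and Thoc1 overlapped total RNA, and those of Ofd1 were above it. A further 14 members met neither limit. Among them Tax1bp1, an autophagy receptor, was at 173 and 200 CPM in IgG, 17.9 and 20.3 CPM in His and 75.1 and 66.4 CPM in total RNA. It lay below total RNA in His and above it in IgG. None of the small RNA members fell in these groups: all 17 had IgG values at least 4 times over total.

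**Figure D4:**
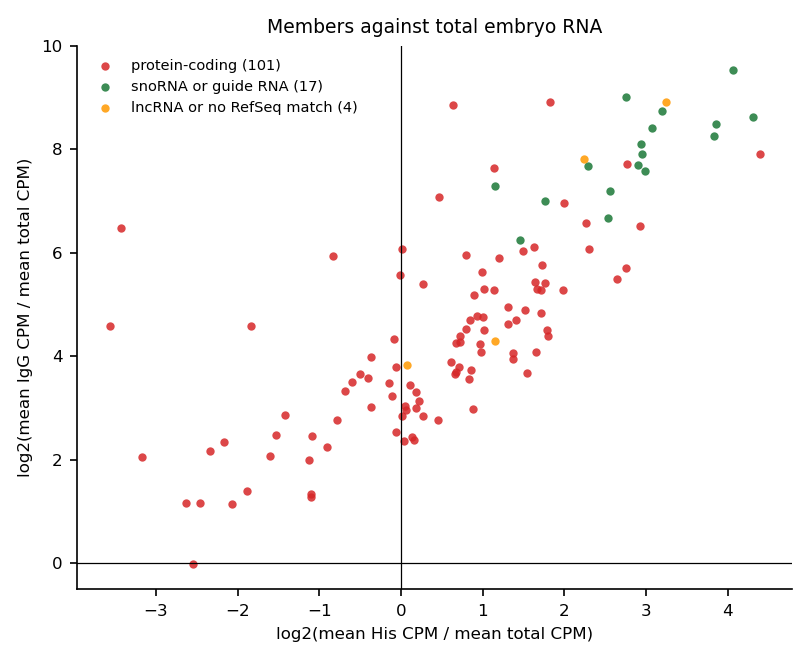
Each point is 1 of the 122 members, with the log2 ratio of the mean His CPM to the mean total CPM on the horizontal axis and that of the mean IgG CPM on the vertical axis; red is protein-coding (101), green snoRNA or guide RNA (17), orange lncRNA or unmatched (4). All green points lie right of 0 and high on the vertical axis, and the points far left, among them Psmd1 and Thoc1, are low in His.

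The knockdown experiment measured the same genes in other embryos, and the rule used none of its values. Eif1ad3 itself had 839 CPM in control A and 663 CPM in control B, against 277 CPM in knockdown A and 377 CPM in knockdown B, a log2 fold change of -1.21 (SE 0.33, limma adjusted p = 0.859). Both knockdown libraries were lower than both controls. In bulk libraries less RNA per cell and fewer cells that hold the transcript cannot be told apart. Of the 122 members 121 were listed in the knockdown table (Gm22009 was not), and 96 passed the filter of 1 CPM in at least 2 of the 4 libraries. The 25 that did not were 13 small RNAs, 11 protein-coding genes and 1 other. The small RNAs were at low values in these embryos: 13 of the 16 listed were under 1 CPM in both controls, and the 16 summed to 4.84 and 6.27 CPM in controls A and B and 6.49 and 19.8 CPM in knockdown A and B.

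No member passed the test. Limma on log2(CPM + 1), fitted over 13332 genes with Benjamini-Hochberg adjustment, called 0 of the 96 members and 0 of all genes (0%) at an adjusted p of 0.05; 7 of 96 members (7.29%) and 726 of all genes (5.45%) had an unadjusted p under 0.05. EdgeR on the recovered reads also called 0 genes, and DESeq2 called 15, none of them a member. With knockdown replicate A left out limma called 1894 genes, 18 of them members, and with knockdown replicate B left out 414 genes, 2 of them members, in fits where the lone knockdown library is assumed to vary like the controls. The 96 members had a median log2 fold change of -0.15, and all genes one of 0.02. Both knockdown libraries were below both controls for 28 members (29.2%), against 18.4% of all genes, and above them for 15 (15.6%), against 18.1%. The members' median difference from the control mean was -0.19 and -0.33 (log2) in knockdown replicates A and B, where that of all genes was 0.14 and -0.17. Knockdown libraries varied more than controls, with a median SD between replicates of 0.49 against 0.24 on the log2 scale.

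Snora47 was at 0.800 and 1.25 CPM in controls and 3.44 and 7.15 CPM in knockdown embryos, a log2 fold change of 1.58 (SE 0.59, limma adjusted p = 0.859); both knockdown values were higher and the test did not call it. Snora21 overlapped, at 0.560 and 1.00 CPM in controls and 0.394 and 3.03 CPM in knockdown, and so did Gm25395, at 1.40 and 1.93 CPM and 0.323 and 1.49 CPM. Of the whole class 7 genes were tested and 0 called, 1 of them with an unadjusted p under 0.05. Malat1 was at 27.4 and 32.8 CPM in controls and 17.1 and 80.2 CPM in knockdown, with the controls between the knockdown values.

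Among members at 10 CPM or more whose groups did not overlap, the largest difference upward was in Zfp809, a zinc finger protein that silences retroviral DNA. It was at 31.4 and 22.6 CPM in controls and 90.9 and 65.4 CPM in knockdown, a log2 fold change of 1.5 (SE 0.41, limma adjusted p = 0.859). Fam120a, an RNA-binding scaffold protein, was at 11.7 and 9.20 CPM in controls and 14 and 47.8 CPM in knockdown (log2 fold change 1.25), and Gigyf2, a repressor of translation that binds 4EHP, was at 45.9 and 54.8 CPM and 61.6 and 199 CPM (1.13). In both the distance came mainly from knockdown replicate B. Tax1bp1 was at 146 and 173 CPM in controls and 213 and 226 CPM in knockdown (0.46). Asph, a hydroxylase of the endoplasmic reticulum, was at 10.8 and 14 CPM and 15.9 and 17.9 CPM (0.43).

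In the other direction Cad was at 23.6 and 26.9 CPM in controls and 15.3 and 8.42 CPM in knockdown, a log2 fold change of -1.08 (SE 0.49, limma adjusted p = 0.859). Eif2b5, the catalytic subunit of the exchange factor for the initiation factor eIF2, was at 34.9 and 45.6 CPM in controls and 19.6 and 19.3 CPM in knockdown (log2 fold change -1.0). Nub1, which brings NEDD8 conjugates to the proteasome, was at 282 and 254 CPM and 155 and 126 CPM (-0.94). The mean knockdown level of these 3 was 47.1%, 48.2% and 52.3% of the control mean. Arih2, a ubiquitin ligase that works with cullins, was at 121 and 113 CPM in controls and 64.2 and 58.4 CPM in knockdown (-0.92). Ube2o was at 51.7 and 60.6 CPM in controls and 37.0 and 23.0 CPM in knockdown (-0.92). None of these differences passed the test.

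Members well expressed in control embryos included Znhit6, at 509 and 533 CPM in controls and 274 and 458 CPM in knockdown (log2 fold change -0.55), after 132 and 150 CPM in IgG, 20.3 and 12.1 CPM in His and 39.4 and 31.4 CPM in total RNA. Kif20b, a kinesin of late cell division, was at 477 and 500 CPM in controls and overlapped in knockdown, at 378 and 824 CPM. Tmem50b, a membrane protein of the secretory pathway, was at 172 and 304 CPM in controls and 200 and 244 CPM in knockdown, and Brd8, a bromodomain protein of the NuA4 acetyltransferase complex, at 139 and 165 CPM and 119 and 115 CPM. Thoc1 overlapped, at 168 and 151 CPM in controls and 152 and 249 CPM in knockdown. Of the messages for proteins of snoRNA particles none was called. Both knockdown libraries were below both controls for 6 of 8 core genes and 4 of 6 assembly factors, against 18.4% of all genes. Among them Nop56 was at 330 and 393 CPM in controls and 239 and 168 CPM in knockdown (log2 fold change -0.84). The core gene Gar1 and the assembly factor Naf1 were higher in both (18.1% of all genes).

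**Figure D5:**
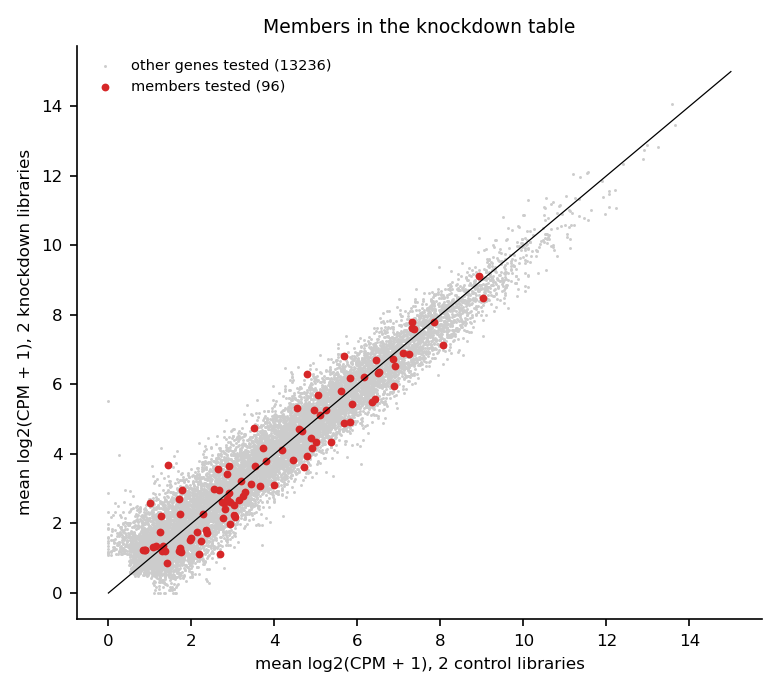
Mean log2(CPM + 1) of the 2 control libraries (horizontal) against that of the 2 knockdown libraries (vertical) for the 13332 genes tested; members (96) are red, other genes grey, and the line marks equal means. The members lie within the spread of the other genes, with a median log2 fold change of -0.15.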

How the data were processed

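The authors deposited CPM values per gene in 2 tables, normalized separately. Per the submitters' processing notes, Trim Galore 0.6.7, FastQC, HISAT2 2.2.1, featureCounts 2.0.1 and edgeR were used with GRCm39, with no settings given in the sources used here. Dividing by the smallest step of each library recovered whole reads for 100% of values (within 0.01 read). Groups came from the sample titles, and 10 libraries of 12 labelled samples were used. A further 2 value columns of the pulldown file were not used because their names do not decide their sample, so the planned comparison of input with total RNA was not run.

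The members were found by the rule given with the results. The members and lists were chosen with earlier results of these data known. RefSeq symbols (GRCm38.p6) matched 19190 of 19390 genes and served for gene types and host genes only; no coordinates are given because the builds differ.

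The knockdown test was limma 3.58.1 in R 4.3.3 (trend, two-sided, group only, pseudocount 1, 1 CPM in at least 2 of 4 libraries, Benjamini-Hochberg, threshold 0.05); a fold change on the log2(CPM + 1) scale understates low genes. EdgeR 4.0.16 (quasi-likelihood, TMM) and DESeq2 1.42.0 ran on the recovered reads. All were also run on simulated data with known changes. Those data had less spread between libraries than the knockdown table, so that run does not tell how many real changes limma would miss here. Alternatives were pseudocounts 0.1 and 5, filters, scalings, no trend, a block for the replicate letter, other limits of the rule and leaving out each replicate; leaving out pulldown libraries, each IgG replicate alone and the count of small RNAs filtered on His alone were added after seeing the data.

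Named members are the 12 of highest smaller IgG value, the 8 of highest control mean, up to 5 in each direction of largest knockdown difference among members at 10 CPM or more with no overlap, the 5 of largest ratio with a His read, members on a marker list, and 3 genes on each side of the ratio limit. Some genes that meet these rules are not reported here. Others were chosen after their values were seen.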

Additional observations from a re-analysis of the deposited data

How the results depend on the processing

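The number of genes found by the rule was 122; it was 329 at a ratio of at least 2, 52 at a ratio of at least 8 and 161 to 1010 with 1 pulldown library left out. It stayed within 1.5 times with a minimum of 10 CPM (137), of 40 CPM (105) and with median rescaling (159). The small RNAs among them numbered 17, 9 at a ratio of at least 8 and 17 to 41 with 1 library left out. In the knockdown comparison limma called 0 genes, 2 with the replicate block, 15 with DESeq2 and 0 to 1894 with 1 library left out, and 0 members, 0 to 18 with 1 library left out. The members' median log2 fold change of -0.15 moved to -0.0053 with no filter on low values and to between -0.3083 and -0.1166 with 1 library left out. The replicate block rests on the letters A and B, which the labels tie to no shared handling; same-letter libraries deviated together with a correlation of 0.146. For the 10 members named for their knockdown difference, 132 of 140 values under 14 alternatives kept direction and side of the threshold, 8 passed it only with a knockdown library left out, and 0 reversed. Input against total RNA was not run. Depth is lowest in IgG, where each member rests on at least 117 reads in a library.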
